A study of Xenopus laevis with 28 samples.

Results

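The voltage-dependent anion channels (VDAC) of the outer mitochondrial membrane and the ADP/ATP carriers of the inner membrane were followed as 5 gene models out of 45831 in a table of 14 frog tissues. The models were chosen by symbol among vdac1, vdac2, vdac3, slc25a4, slc25a5 and slc25a6, and 3 of these 6 symbols matched a row. They were vdac2.1 (Xelaev18000562m), vdac3.L (Xelaev18018793m), vdac3.S (Xelaev18020166m), slc25a4.L (Xelaev18005354m) and slc25a4.S (Xelaev18009122m). The symbols vdac1, slc25a5 and slc25a6 matched no row and were not analysed here, although RefSeq's gene table for Xenopus_laevis_v10.1 lists vdac1 and slc25a5 with an L and an S copy each. That table lists vdac2 once, as vdac2.S, while the model vdac2.1 carries no copy ending, so its copy is not assigned here. The symbols were chosen with the tissue levels of these data known, so levels and differences between tissues are given below as a description with no test.

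VDAC proteins form the pore through which ATP, ADP, phosphate and small metabolites cross the outer mitochondrial membrane, and VDAC2 is also known in mammals as a partner of the cell death proteins BAK and BAX. ADP/ATP carriers exchange matrix ATP for cytosolic ADP across the inner membrane, so the channel and the carrier lie in series on the route by which ATP leaves the mitochondrion. In mammals SLC25A4 (ANT1) is the carrier of heart and skeletal muscle, SLC25A5 that of dividing cells, and VDAC3 is known for its role in sperm.

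Polyadenylated RNA was sequenced from whole brain, eye, heart, intestine, kidney, liver, lung, muscle, ovary, pancreas, skin, spleen, stomach and testis of J-strain Xenopus laevis, an inbred strain of the African clawed frog. This species is allotetraploid, and many genes have a copy on a long (L) and on a short (S) chromosome set. Each tissue had 1 Taira and 1 Ueno library, named after the datasets. All 13 other organs of a dataset came from 1 female, and testis came from 2 males that are siblings of the females, so tissue values rest on 2 animals. The labels give no age and no treatment. Values are TPM, in which reads are divided by model length and then by the library's total of such values, so levels of different genes can be compared, and the read depth is unknown. Tissue values are the mean ± SD of 2 libraries.

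The tissue labels were checked against lists of marker genes. All 14 lists made for 1 of these organs had their highest summed TPM in that organ, while the erythrocyte list was highest in liver and the smooth muscle list in lung. The skeletal muscle list, with 5 of its 10 symbols and 10 models in the table, summed to 150930 and 49690 TPM in the Taira and Ueno muscle. It also reached 3233 and 1678 TPM in the 2 eye libraries, where all 10 models were above 1 TPM in both, and 4438 and 8035 TPM in heart.

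The outer membrane channel vdac2.1 was present in every library, from 56.9 TPM in the Ueno pancreas to 3885 TPM in the Ueno heart, with a median of 592 TPM over 28 libraries. It stood at 1828 and 3885 TPM in the Taira and Ueno heart, and at 1080 and 3431 TPM in muscle. These 4 libraries were all above the other 24, and heart and muscle overlapped with each other. The difference from the mean of the other 13 tissues on the log2(TPM + 1) scale was 2.61 (SE 0.38) in heart and 2.102 (SE 0.38) in muscle, while the median of all 33317 models past a minimum of 1 TPM in 2 libraries was -0.18 and -0.66. In whole tissue, fewer cells of a type and less RNA per cell cannot be told apart. Below heart and muscle, the tissue means ran from 859 ± 253 TPM in kidney, 828 ± 286 TPM in testis and 765 ± 0.764 TPM in intestine to 591 ± 16.0 TPM in stomach, 562 ± 117 TPM in brain and 506 ± 181 TPM in skin. Eye followed with 491 ± 142 TPM, ovary with 468 ± 174 TPM, lung with 287 ± 26.9 TPM, spleen with 227 ± 12.5 TPM, liver with 168 ± 93.6 TPM and pancreas with 59.5 ± 3.68 TPM. Of the 13 steps in this order, the libraries of the neighbours overlapped in 8. They were apart between muscle and kidney, intestine and stomach, ovary and lung, lung and spleen, and liver and pancreas.

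The low end of this order moved with the scaling, since TPM is by construction a share of the library. The difference of vdac2.1 in pancreas was -3.28 in TPM, -0.70 after median-of-ratios scaling and -0.79 after quantile normalization, and the median of all models in pancreas was -1.33 in TPM and -0.19 after median-of-ratios scaling. Its differences in heart and muscle stayed positive, at 2.48 and 3.04 after median-of-ratios scaling and 2.12 and 1.64 after quantile normalization. In brain the sign turned, from 0.17 to -1.02 under median-of-ratios scaling, and in kidney it turned from 0.81 to -0.01.

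**Figure D1:**
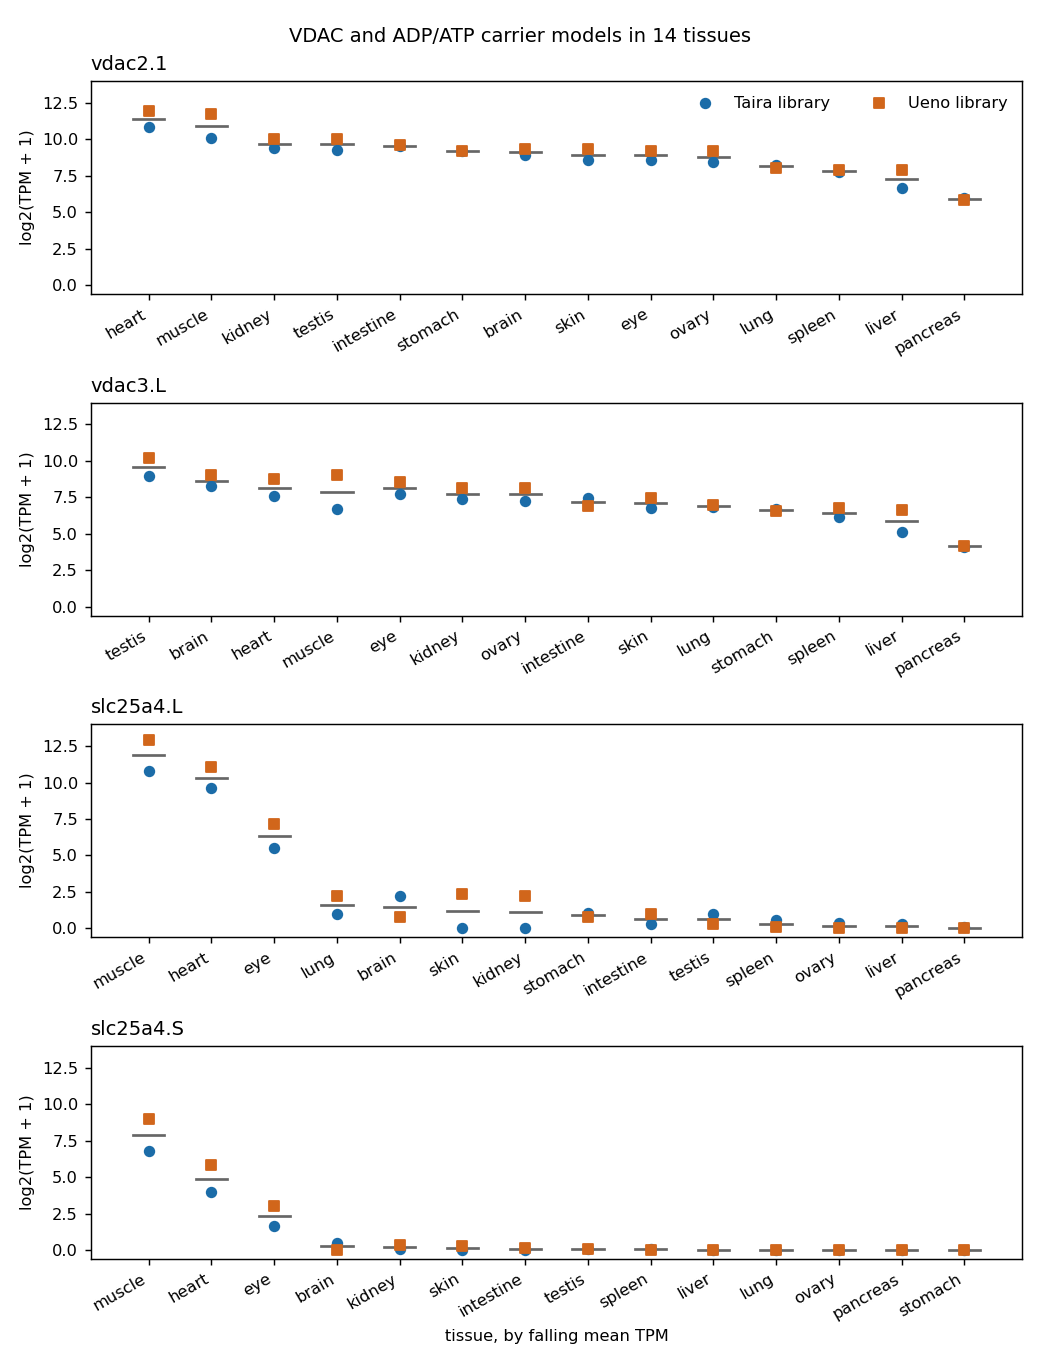
Level of vdac2.1, vdac3.L, slc25a4.L and slc25a4.S as log2(TPM + 1) in 14 tissues, ordered in each panel by falling mean TPM. Circles are Taira and squares Ueno libraries, and bars are means of the log2 values. The model vdac2.1 peaks in heart and muscle, vdac3.L in testis, and both slc25a4 copies stand above 10 TPM in a library only in muscle, heart and, for the L copy, eye.

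The vdac3 gene was represented almost wholly by its L copy. The model vdac3.L ranged from 16.3 TPM in the Taira pancreas to 1191 TPM in the Ueno testis, with a median of 158 TPM. Testis led the order, with 493 and 1191 TPM in the Taira and Ueno libraries. The Taira testis lay below the Ueno brain (523 TPM) and the Ueno muscle (519 TPM), so testis overlapped with those tissues. The log2 difference of testis from the other tissues was 2.46 (SE 0.50), and it was 1.98 after median-of-ratios scaling and 2.30 after quantile normalization. Brain followed with 415 ± 152 TPM, then heart with 312 ± 169 TPM, muscle with 310 ± 294 TPM, eye with 290 ± 109 TPM, kidney with 224 ± 80.1 TPM and ovary with 219 ± 98.6 TPM. Intestine stood at 147 ± 38.3 TPM, skin at 143 ± 49.2 TPM, lung at 119 ± 6.37 TPM, stomach at 98.8 ± 5.55 TPM, spleen at 88.3 ± 25.2 TPM, liver at 66.7 ± 46.7 TPM and pancreas at 16.6 ± 0.474 TPM. Neighbours in this order overlapped in 11 of 13 steps, all but lung to stomach and liver to pancreas. Below testis the differences moved with the scaling. In brain the difference was 1.45 in TPM, 0.27 after median-of-ratios scaling and 1.26 after quantile normalization. In muscle these values were 0.60, 1.54 and 0.35, and in pancreas -3.40, -0.87 and -0.70.

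The balance between the 2 VDAC genes varied across the tissues. As a share of the summed TPM of the 3 VDAC models, with vdac1 not included, vdac2.1 took 90.5% in the Taira and 90.0% in the Ueno heart, and 91.4% and 86.9% in muscle. In testis it took 55.9% and 46.4%, in brain 60.8% and 55.2%, and in eye 64.8% and 61.7%. The Ueno testis was the only one of 28 libraries in which vdac3.L exceeded vdac2.1, with a ratio of vdac2.1 to vdac3.L of 0.864. Between these tissues lay ovary (68.5% ± 1.82), lung (70.6% ± 3.05), spleen (72.2% ± 4.64), liver (72.6% ± 3.53), skin (77.8% ± 0.274), pancreas (78.1% ± 1.60), kidney (79.5% ± 1.08), intestine (83.9% ± 3.53) and stomach (85.7% ± 0.364). A share within a library does not change when all its values are divided by a common factor, as in median-of-ratios scaling. It can change under quantile normalization, for which shares were not computed. Pancreas, the lowest tissue for both genes in TPM, had a share between those of skin and kidney. Sperm cell markers, with 4 of 10 symbols and 6 models in the table, summed to 1228 and 593 TPM in the Taira and Ueno testis, the reverse of the order of vdac3.L, and their part in the level of vdac3.L was not tested.

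**Figure D2:**
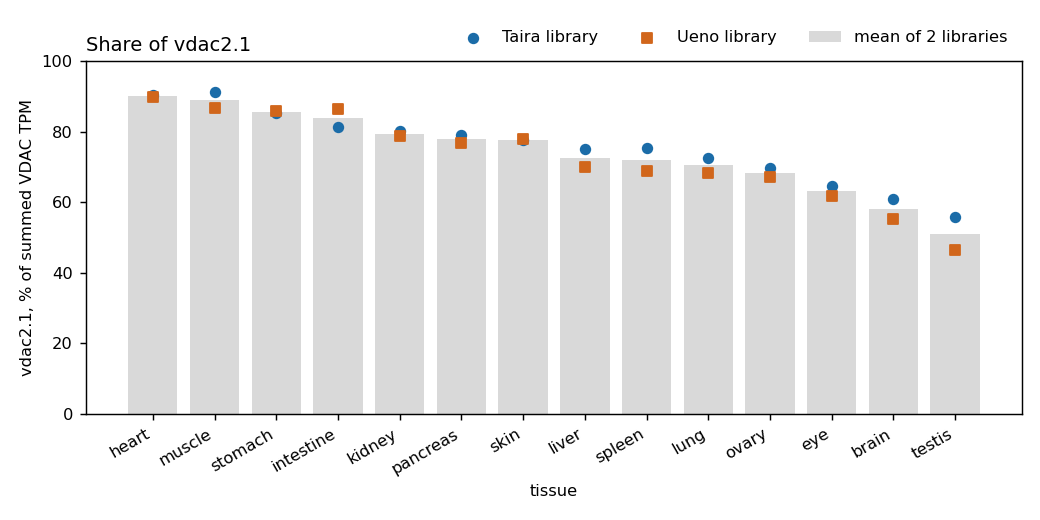
Share of vdac2.1 in the summed TPM of vdac2.1, vdac3.L and vdac3.S, in percent, by tissue. Grey columns are means of 2 libraries, circles Taira and squares Ueno libraries. The share falls from 90.2% in heart to 51.2% in testis.

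The carrier slc25a4 had the narrowest distribution of the members. Its L copy stood at 1780 and 7757 TPM in the Taira and Ueno muscle, at 806 and 2093 TPM in heart, and at 45.6 and 145 TPM in eye. In the other 22 libraries it lay between 0 and 4.07 TPM, and it was listed at 0 in 5 of them. Muscle and heart overlapped, while heart was apart from eye and eye from all other tissues. The log2 difference from the other tissues was 9.94 (SE 0.65) in muscle, 8.31 (SE 0.65) in heart and 4.02 (SE 0.65) in eye, and it stayed at 9.74 or more, 8.05 or more and 3.56 or more under median-of-ratios scaling and quantile normalization. In muscle slc25a4.L exceeded vdac2.1, by a ratio of 1.65 in the Taira and 2.26 in the Ueno library. In heart it was lower than vdac2.1, with ratios of 0.441 and 0.539. The eye libraries held skeletal muscle transcripts, as given above, and heart muscle markers summed to 33.2 and 30.4 TPM there. The muscle marker sum was higher in the Taira eye and slc25a4.L was higher in the Ueno eye. The muscle libraries had the same opposite orders, with marker sums of 150930 and 49690 TPM in the Taira and Ueno muscle. The part of muscle tissue in the eye level was not tested.

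The S copy had the same 3 leading tissues in the same order, at lower levels. The model slc25a4.S stood at 111 and 506 TPM in the Taira and Ueno muscle, at 15 and 54.6 TPM in heart and at 2.07 and 7.01 TPM in eye. It did not exceed 0.41 TPM elsewhere and was listed at 0 in 14 of 28 libraries. Here muscle, heart and eye were apart from each other and from all other tissues. Its share of the slc25a4 TPM was 5.88% in the Taira and 6.12% in the Ueno muscle, 4.34% and 4.61% in eye, and 1.83% and 2.54% in heart. The 3 tissues did not overlap, although slc25a4.L differed between the libraries by a fold of 4.36 in muscle and 2.60 in heart.

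**Figure D3:**
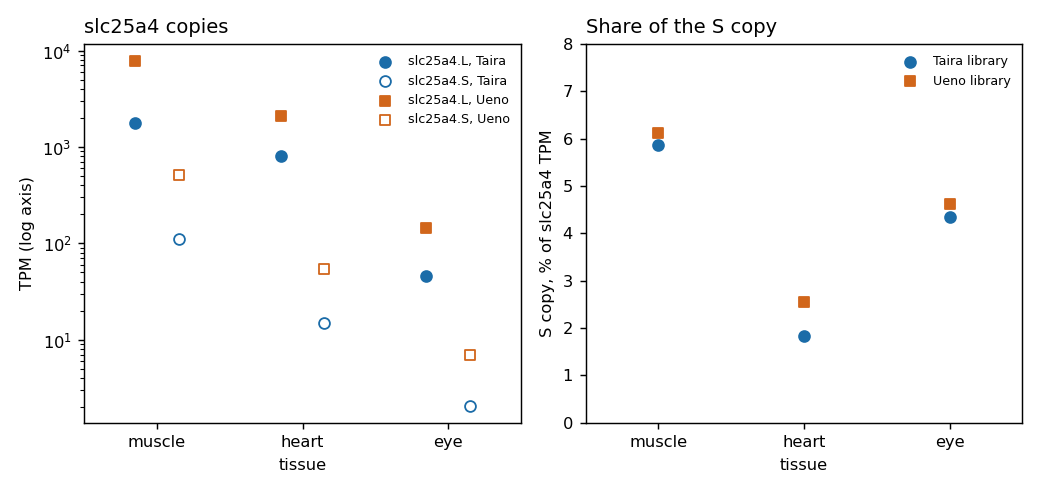
The 2 copies of slc25a4 in muscle, heart and eye, the tissues with at least 10 TPM in each library. Left, TPM on a log axis, with filled marks for the L and open marks for the S copy. Right, the S copy in percent of the slc25a4 TPM, at 5.88% and 6.12% in muscle, 1.83% and 2.54% in heart and 4.34% and 4.61% in eye. Circles are Taira and squares Ueno libraries.

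The symbols were chosen with earlier results of these data known, by a rule that does not name the ratio of the copies. Which copy was higher was tested over 7749 L and S pairs with limma. The size of the ratio and its p-value are not independent of the tissue levels, which were known when the symbols were chosen. The log2 ratio was computed with 1 TPM added to each copy and averaged over the tissues, and calls needed a mean of at least 1 in size and, after Benjamini-Hochberg adjustment, p under 0.05. Both member pairs were called with L higher, against 15.6% of all pairs, and 8.19% of pairs were called with S higher. For vdac3 the mean log2 ratio was 7.06 (SE 0.15, adjusted p = 8.76e-18), and L was higher in 28 of 28 libraries. The model vdac3.S did not exceed 1.03 TPM, its value in the Taira brain, was above 1 TPM in no other library and did not pass the minimum. The size of the vdac3 ratio and its p-value therefore follow the level of the L copy. For slc25a4 the mean log2 ratio was 1.49 (SE 0.11, adjusted p = 8.35e-10), with L higher in 23 libraries and S in 1, the Taira kidney, where the copies stood at 0 and 0.05 TPM. This mean includes 11 tissues with both copies at 4.07 TPM or less, in which the added 1 TPM pulls the ratio toward 0. Among these 11 the tissue means of the ratio ran from 0.04 in pancreas to 1.60 in lung. The tissue means were 5.45 in heart, 4.06 in eye and 3.96 in muscle. The mean over all tissues thus rests largely on these tissues. The L copy reached 1 TPM in 11 libraries and the S copy in 6, so many libraries with L higher hold values near 0.

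Differences of the ratio between tissues are given with no test, since in both pairs the ratio moves with the tissue levels. With S near 0 everywhere, the vdac3 ratio follows the level of its L copy, from 4.09 in pancreas to 9.43 in testis. The difference between heart and muscle in the slc25a4 ratio, a contrast chosen after its values were seen, was 1.48 (SE 0.61). It was 1.31 with 5 TPM added in place of 1. With 1 TPM added it ranged from 1.27 to 1.69 when 1 library was left out. The L and S copies are close paralogs, so reads that fit both are divided by the authors' estimation, and values of the low copies are uncertain for that reason.

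The difference between the 2 females, Ueno minus Taira, was tested with limma in 26 libraries, with the 13 tissues as blocks. The frog, the dataset, its date code and the clutch cannot be told apart here, and all tissues of a dataset share 1 animal. The SE and p-values therefore measure agreement over the 13 tissues of the same 2 animals, not the spread between frogs. Both VDAC models were higher in the Ueno frog with an adjusted p under 0.05, as were 7.44% of all models, while 32.9% were lower. The difference was 0.70 for vdac3.L (SE 0.19, adjusted p = 0.00979), higher in 11 of 13 tissues, and 0.53 for vdac2.1 (SE 0.15, adjusted p = 0.0132), higher in 10 of 13. The median of all models was -0.22. For slc25a4.L the difference was 0.68 (SE 0.31, adjusted p = 0.0948) and for slc25a4.S it was 0.42 (SE 0.21, adjusted p = 0.123), so neither passed. After median-of-ratios scaling slc25a4.L stood at 0.81 (adjusted p = 0.0448) and slc25a4.S at 0.50 (adjusted p = 0.102). None of the 4 tested members reached a difference of 1 as well, 0 of 4 against 0.648% of all models higher and 9.93% lower. After median-of-ratios scaling vdac3.L reached 1.17 (adjusted p = 0.00101) and was called, vdac2.1 stood at 0.9998, just under the limit (adjusted p = 0.00169), and the median of all models was -0.02.

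The gap was widest in muscle, where vdac3.L stood at 102 and 519 TPM, a fold of 5.08, and vdac2.1 at a fold of 3.18. The sum of the skeletal muscle markers went the other way, at 150930 and 49690 TPM in the Taira and Ueno muscle, and its part in the difference was not tested. Liver followed, with folds of 2.97 for vdac3.L and 2.30 for vdac2.1, and then heart, with 2.24 and 2.13. Without both muscle libraries, an alternative chosen after the values were seen, the difference was 0.56 for vdac3.L (adjusted p = 0.0127) and 0.43 for vdac2.1 (adjusted p = 0.0213). In stomach both models were slightly lower in the Ueno library, with folds of 0.924 and 0.962, and in intestine vdac3.L stood at 174 and 120 TPM in the Taira and Ueno libraries. The testis libraries, from 2 males and outside this test, gave folds of 2.42 for vdac3.L and 1.65 for vdac2.1.

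**Figure D4:**
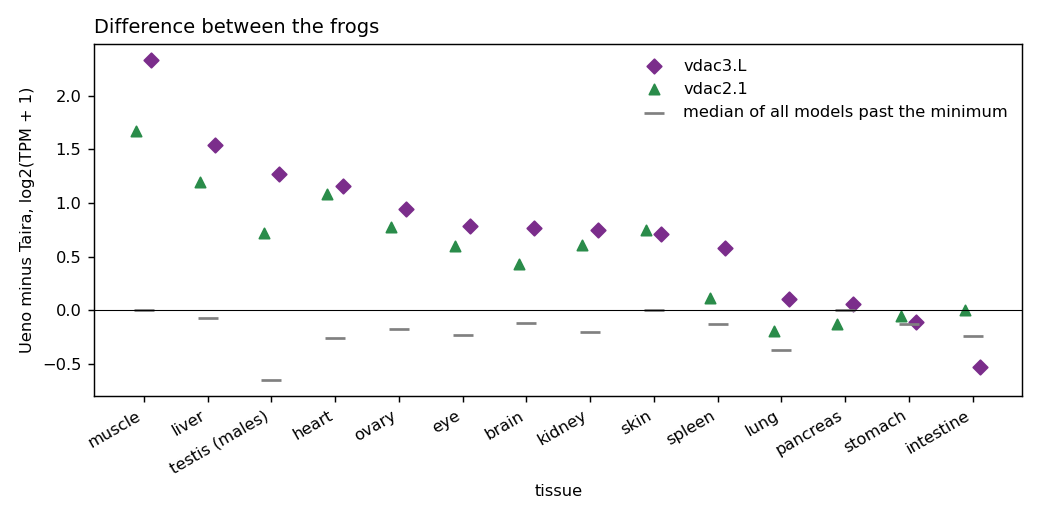
Ueno minus Taira difference of log2(TPM + 1) in each tissue for vdac3.L (diamonds) and vdac2.1 (triangles), with the median of all models past the minimum as a grey dash. Testis comes from 2 males. The VDAC models lie above the grey dash in every tissue for vdac2.1 except pancreas, and for vdac3.L except intestine, with the widest gap in muscle at 2.33 and 1.67.

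The genes whose pattern was most like each member were taken by Pearson's r over the 14 tissue means of log2(TPM + 1), among 16560 named models. For vdac2.1 they were cox7b.L (r = 0.983), which encodes a subunit of cytochrome c oxidase, atp5o.S (r = 0.980), of ATP synthase, and ndufa7-like.L (r = 0.974), named after a complex I subunit. In TPM all 3 were highest in heart and lowest in pancreas, as vdac2.1 was. For slc25a4.L they were cox6a2.L (r = 0.994), the muscle form of a cytochrome c oxidase subunit in mammals, tcap.S (r = 0.993), a sarcomere protein, and ckm.S (r = 0.991), the muscle creatine kinase. On the log2(TPM + 1) scale cox6a2.L and ckm.S were highest in muscle, as slc25a4.L was, and tcap.S in heart. Since slc25a4.L was low outside muscle, heart and eye, its r values rest largely on these tissues. For vdac3.L they were cops5.S (r = 0.964), a signalosome subunit, ppp1cb.L (r = 0.957), a phosphatase subunit, and anapc13.1.L (r = 0.954), named after a subunit of the anaphase-promoting complex. On the same scale cops5.S and anapc13.1.L were highest in testis, as vdac3.L was, and ppp1cb.L in brain. Over the 28 libraries the same 3 models led for slc25a4.L, 2 of 3 for vdac2.1 and none of 3 for vdac3.L. These values describe the tissues, which share donors and composition, and carry no test. The r values use TPM alone, in which the median difference of all models in pancreas was -1.33. After median-of-ratios scaling the log2 difference of vdac2.1 was highest in muscle (3.04) and lowest in spleen (-1.89), and r was not computed on that scale.

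Mitochondrial genes that are no members were taken from pathway lists, of whose symbols the table held 12 of 33 for ATP synthase, 13 of 20 for the citrate cycle, 33 of 53 for other SLC25 carriers and 21 of 40 for the outer membrane, and tested in heart, muscle and testis, each against the mean of the other 13 tissues, at an adjusted p under 0.05 and a difference of at least 1. In heart 7.96% of all models were called higher and 6.4% lower, in muscle 5.58% and 24.6%, and in testis 18.8% and 7.58%. ATP synthase, the enzyme that makes the ATP the carriers export, was higher in 22 of 22 models in heart (median 2.13) and 20 of 22 in muscle (median 2.19), with none lower. Heart was led by usmg5.S (522 ± 356 TPM, log2 difference 3.002, adjusted p = 0.000489) and atp5h.L (1339 ± 562 TPM, 2.77, adjusted p = 4.65e-05), both subunits of the complex. Muscle was led by atp5b.S, the catalytic beta subunit (1151 and 5304 TPM, 2.53, adjusted p = 0.000283), and atp5j2.L (2.48, adjusted p = 6.8e-05). In testis 3 of 22 were called higher, atp5s.L (2.05, adjusted p = 7.86e-05), atp5h.S and atp5j.L (median 0.36). The highest means of atp5s.L and atp5h.S were in muscle (214 TPM) and heart (296 TPM). The heart count was 6 without the Ueno heart and 12 after median-of-ratios scaling, the muscle count 8 without the Ueno muscle, and the testis count 1 without either testis library. Without the Ueno heart usmg5.S was not called (adjusted p = 0.0531), and atp5h.S was not called without either testis library (adjusted p = 0.0637 and 0.0684), nor was atp5j.L (adjusted p = 0.196 and 0.159), whose call was lost in 15 of 28 runs that left out 1 library. In testis the median was -0.12 and 1 model was higher after median-of-ratios scaling, and 1 was higher and 3 were lower after quantile normalization.

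Citrate cycle genes gave 17 of 21 models higher in heart (median 1.80) and 17 of 21 in muscle (median 1.81), with none lower. Among them were the malate dehydrogenase mdh2.L in heart (506 ± 271 TPM, log2 difference 2.15, adjusted p = 0.00259) and the succinate dehydrogenase subunit sdha.S in muscle (287 ± 152 TPM, 3.01, adjusted p = 0.00103). The highest mean of mdh2.L was in muscle, at 732 TPM. In testis idh3b.S and idh3a.L, subunits of isocitrate dehydrogenase, and dlat.L, of the pyruvate dehydrogenase complex, were called higher (median 0.30), as were 18.8% of all models. The highest mean of idh3a.L was in brain, at 79.4 TPM. The citrate synthase cs.L and the succinyl-CoA ligase subunit suclg2.L were lower in testis. Without the Ueno heart 6 were called in heart and mdh2.L was not (adjusted p = 0.133), without the Ueno muscle 5 were called in muscle and sdha.S was lost (adjusted p = 0.0529), and without either testis library 1 was called higher in testis. The calls of idh3b.S, dlat.L and suclg2.L were lost without either testis library, and that of cs.L without the Taira testis (adjusted p = 0.425). The testis median was -0.18 after median-of-ratios scaling and -0.27 after quantile normalization.

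The phosphate carrier slc25a3 supplies the phosphate for ATP synthesis and works beside the ADP/ATP carrier. Its S copy stood at 804 and 1042 TPM in heart and 384 and 1090 TPM in muscle, with log2 differences of 2.45 (SE 0.37, adjusted p = 0.000113) and 1.91 (SE 0.37, adjusted p = 0.000615). Without the Ueno muscle the muscle difference of slc25a3.S was 1.16 and not called (adjusted p = 0.0747). The L copy stood at 215 and 416 TPM in heart and did not pass (1.37, adjusted p = 0.061), but it was called when the frog entered the fit as a block (adjusted p = 0.00492) and in 4 of 28 runs that left out 1 library (adjusted p = 0.0196 to 0.0432). In contrast to slc25a4, slc25a3 was found in all 28 libraries, and S exceeded L in 22 of them (mean log2 ratio -0.61, SE 0.05, adjusted p = 1.65e-09). Between the frogs both copies were higher in Ueno in 12 of 13 tissues, by 0.72 for L (adjusted p = 0.00413) and 0.51 for S (adjusted p = 0.00429). After median-of-ratios scaling these were 1.19 for slc25a3.L, which was then called (adjusted p = 0.000808), and 0.98 for slc25a3.S (adjusted p = 0.000952). No row matched slc25a31, the germ cell ADP/ATP carrier of mammals, and it was not analysed here.

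Of 52 models of other SLC25 carriers, 9 were higher and 5 lower in heart (median 0.10), 7 and 18 in muscle (median -0.73) and 8 and 5 in testis (median 0.16). Over all models the shares higher and lower were 7.96% and 6.4% in heart, 5.58% and 24.6% in muscle, and 18.8% and 7.58% in testis. The medians of all models were -0.18, -0.66 and 0.01. The aspartate and glutamate carrier slc25a12.L was higher in heart (326 ± 127 TPM, log2 difference 3.62, adjusted p = 6.33e-07) and muscle (707 ± 504 TPM, 4.66, adjusted p = 1.67e-08). The glutamate carrier slc25a22.S led in heart (57.7 and 20.0 TPM, 3.67, adjusted p = 0.00016), and the oxoglutarate carrier slc25a11.L was the next in muscle (3.01, adjusted p = 0.00158, and 0.122 without the Ueno muscle). The citrate carrier slc25a1.L was lower in heart (-1.70, adjusted p = 0.00101, and 0.0582 without the Taira heart) and in muscle (-3.20, adjusted p = 8.72e-07). The dicarboxylate carrier slc25a10.L was lower in heart (-1.53, adjusted p = 0.0103), a call lost without either heart library (adjusted p = 0.0699 and 0.175), and slc25a13.L, a paralog of slc25a12, was lower in muscle (-2.64, adjusted p = 4.86e-05). In testis slc25a22.L (2.95, adjusted p = 2.82e-07) and the folate carrier slc25a32.L (2.37, adjusted p = 5.43e-05) were higher. There slc25a34.L (-2.49, adjusted p = 0.00514) and slc25a10.L (-1.497, adjusted p = 0.00714) were lower, with adjusted p = 0.0902 and 0.12 without the Taira testis. The higher counts were 4 without the Ueno heart and 1 without the Ueno muscle. The lower counts were 1 and 2 without the Taira and the Ueno heart, 9 and 11 without the Taira and the Ueno muscle, and 1 and 3 without the Taira and the Ueno testis. The balance in muscle and testis turned with the scaling. In muscle 14 models were higher and 9 lower after median-of-ratios scaling (median 0.02) and 13 and 7 after quantile normalization (median 0.15). In testis these counts were 5 and 7 (median -0.24) and 5 and 10 (median -0.30). After median-of-ratios scaling the median of all models was -0.28 in muscle and -0.19 in testis.

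The list named outer membrane here holds import proteins and VDAC partners, and also genes such as mcu whose products lie elsewhere in the mitochondrion. Its models were called in both directions. Of 36 models, 3 were higher and 3 lower in heart (median 0.26), 4 and 11 in muscle (median -0.18) and 5 and 5 in testis (median -0.20). Beside these, the shares of all models higher and lower were 7.96% and 6.4% in heart, 5.58% and 24.6% in muscle, and 18.8% and 7.58% in testis. The medians of all models were -0.18, -0.66 and 0.01. The hexokinase gene hk1, whose mammalian product binds VDAC, led in heart with hk1.S (92.6 ± 6.46 TPM, log2 difference 3.86, adjusted p = 1.26e-05) and hk1.L (2.99, adjusted p = 0.000867, and 0.0815 without the Taira heart), and tomm5.L, of the protein import pore, was the third. The other hexokinase, hk2.S, was lower in heart (-1.68, adjusted p = 0.0047, and 0.12 without the Taira heart) and in muscle (-2.83, adjusted p = 3.15e-05), and hk2.L was lower in muscle (-2.02, adjusted p = 0.0113), a call lost without either muscle library. The calcium uniporter copies mcu.L (-1.19, adjusted p = 0.0454) and mcu.S were lower in heart, and the call of mcu.L was lost in 21 of 28 runs that left out 1 library. Without either heart library mcu.S and tomm5.L were not called, and without either muscle library mcu.S and fis1.1 were not called in muscle. In muscle hk1.L (3.30, adjusted p = 0.000212), the mitochondrial creatine kinase ckmt1b.S (232 ± 79.4 TPM, 2.47, adjusted p = 8.74e-06), mcu.S and the fission protein fis1.1 were higher, although ckmt1b.S was highest in intestine, at 2195 TPM. The highest mean of hk1.L was in brain, at 88.6 TPM. In testis rhot2.L, which tethers mitochondria to motor proteins (1.73, adjusted p = 0.00321), the uniporter subunit smdt1.S (1.68, adjusted p = 0.000219), hk1.S, the metaxin mtx2.S and fis1.1 were higher. The highest mean of rhot2.L was in ovary, at 58.2 TPM, beside 44.6 TPM in testis. The models ckmt1b.S (-2.42, adjusted p = 6.32e-06), mcu.S (-1.61, adjusted p = 0.00166), bok.S of the BCL2 family, hk2.S and the uniporter regulator micu2.S were lower in testis. The higher count in heart was 1 without the Taira heart, that in muscle 2 without the Ueno muscle and that in testis 2 without the Taira testis. The lower count was 0 and 1 without the Taira and the Ueno heart, 3 without the Taira muscle and 1 without the Ueno testis. In testis fis1.1, bok.S and hk2.S were not called without either testis library, hk1.S and mtx2.S not without the Taira testis, and micu2.S and mcu.S not without the Ueno testis (adjusted p = 0.652 and 0.0806). The call of micu2.S was lost in 19 of 28 such runs. The balance turned with the scaling here as well. In muscle 8 models were higher and 6 lower after median-of-ratios scaling (median 0.74) and 6 and 3 after quantile normalization (median 0.28). In testis these counts were 1 and 11 (median -0.61) and 2 and 13 (median -0.62). After median-of-ratios scaling the median of all models was -0.28 in muscle and -0.19 in testis. The shares of all models called in these tissues under the scalings are not given here.

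**Figure D5:**
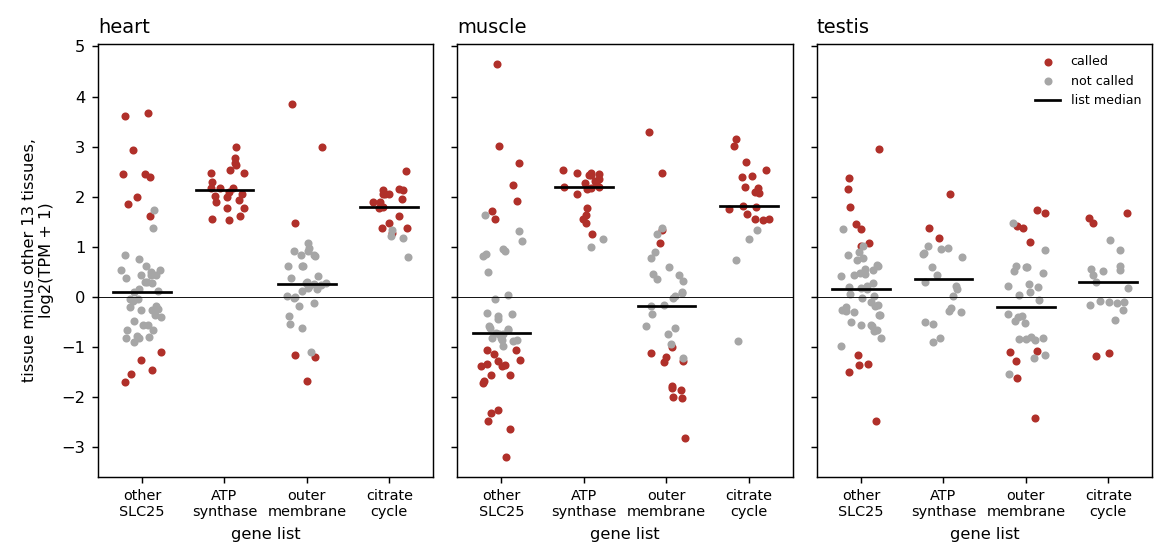
Difference of each list model in heart, muscle and testis from the mean of the other 13 tissues, on the log2(TPM + 1) scale. Red points passed an adjusted p under 0.05 and a size of 1, grey points did not, and black lines are list medians. ATP synthase and citrate cycle models lie high in heart and muscle (medians of 1.80 to 2.19), while the other SLC25 carriers and the outer membrane list spread to both sides.

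Between the frogs the same lists had medians of 0.59 for ATP synthase, 0.29 for the citrate cycle, -0.04 for other SLC25 carriers and -0.13 for the outer membrane list, beside -0.22 for all models. At an adjusted p under 0.05 and a difference of at least 1, 0.648% of all models were higher and 9.93% lower. In the lists 1 of 22 ATP synthase, 1 of 21 citrate cycle and 2 of 52 other SLC25 models were higher. Of 36 outer membrane list models 1 was higher and 1 lower. The list models higher in Ueno, by 1.02 to 1.25, were the ATP synthase subunit atp5l.L, idh3b.S, slc25a11.1, slc25a11.L and the outer membrane protein tspo.L. The lower model was ppif.1, which encodes cyclophilin D, with a difference of -1.09. After median-of-ratios scaling 15 of 22 ATP synthase models were called higher, with a median of 1.06. So were 7 of 21 for the citrate cycle, 6 of 52 for other SLC25 carriers and 4 of 36 for the outer membrane list. No list model was called lower then, beside 1350 higher and 1475 lower of all 33317 models.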

How the data were processed

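RNA of minced whole tissue was poly-A selected, and libraries without strand information were sequenced on an Illumina HiSeq, per the labels' protocols. BWA 0.7.10 and RSEM 1.2.19 stand in the submitters' processing notes. TPM values were deposited by the authors as a single table, with library sums from 999999 to 1000001. TPM keeps no depth, so no counting interval or count model was used, and overlapping genes on opposite strands cannot be told apart.

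Columns were mapped to samples by name. Models with at least 1 TPM in at least 2 of 28 libraries were kept (33317 of 45831, 4 of 5 members), transformed to log2(TPM + 1) and analysed in R 4.3.3 with limma 3.58.1, using a mean for each tissue and 14 residual degrees of freedom, a variance trend and Benjamini-Hochberg adjustment over all models or pairs. Homeolog pairs were symbols that occur once as L and once as S (8017, of which 7749 were tested). Figures were drawn with matplotlib 3.10.9. The fits were run on simulated data with noise drawn separately for each library, so shared donors were not part of the simulation. Its outcome is not given here.

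Members, lists and tests were chosen with earlier results of these data known. Named genes were the members, the 3 most similar models of each member symbol, the 2 largest called differences per list, tissue and direction, and slc25a3. A gene that this rule names is not reported here. An F test of the L to S ratio between tissues was planned but is not reported, since the ratio follows the levels that chose the symbols. Others, named where a count was 5 or fewer, were chosen after their values were seen. Per the series design, 1 female gave all same-numbered libraries but testis, and p-values rest on 2 animals. As a check on this pairing, the Ueno minus Taira differences were correlated across models for 78 pairs of female tissues (median r 0.425, lowest -0.0138, 74 over 0.1). The models were fitted without the block. Alternatives were other pseudocounts, minimums, scalings and variance models, the frog as a block, testis added to the frogs, the r over libraries, and each library left out.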

Additional observations from a re-analysis of the deposited data

Results flagged for a closer look

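The difference between the frogs had opposite signs in different tissues, which was not tested because each tissue holds 1 library per frog. For vdac2.1 the Ueno library was lower in 3 of 13 female tissues, lung, pancreas and stomach, with log2 differences of -0.19, -0.12 and -0.06. The medians of all models there were -0.37, 0 and -0.13, so vdac2.1 lay below the median only in pancreas. For vdac3.L the Ueno library was lower in 2 of 13, intestine and stomach, with -0.53 and -0.11. The medians there were -0.24 and -0.13, so vdac3.L lay below the median only in intestine.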

How the results depend on the processing

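The calls of L over S for vdac3 and slc25a4 held in all 28 runs without 1 library, though the slc25a4 mean rests largely on muscle, heart and eye. So did the adjusted p under 0.05 of both VDAC models between the frogs. The frog differences were 0.56 to 0.80 for vdac3.L and 0.43 to 0.59 for vdac2.1. In the frog fit, leaving out 1 library of a tissue removes that tissue's pair, and the testis libraries are not part of it. For the frogs these runs therefore drop 1 tissue at most, and they do not vary the animals. With the frog as a block none of the 167 calls of list models in heart, muscle and testis was lost and 19 were gained, among them slc25a3.L in heart, and the member pairs kept their calls. The pseudocount set the counts over all pairs: 1205 were called with L higher and 635 with S higher, 1944 and 1014 at 0.1 TPM, and 578 and 322 at 5 TPM. Between the frogs 216 models were higher and 3307 lower in Ueno, 460 and 6622 at 0.1 TPM, 100 and 839 at 5 TPM, 1350 and 1475 after median-of-ratios scaling, and 790 and 1317 after quantile normalization. The cause was not tested. TPM hides depth, which limits what can be said of models near 0.

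Counts of list models called higher moved as follows, and the lower counts under both scalings stand beside the lists above. Median-of-ratios scaling gave 12 for ATP synthase in heart, 14 for other SLC25 carriers and 8 for the outer membrane list in muscle, and in testis 1 for ATP synthase, 1 for the citrate cycle, 5 for other SLC25 carriers and 1 for the outer membrane list. Quantile normalization gave 13 for other SLC25 carriers in muscle, and in testis 1, 0, 5 and 2 for the same 4 lists. A pseudocount of 5 gave 4 for other SLC25 carriers and 3 for the outer membrane list in testis. Without 1 library the counts ranged in heart from 4 to 11 for other SLC25 carriers, 6 to 22 for ATP synthase, 1 to 3 for the outer membrane list and 6 to 20 for the citrate cycle. In muscle they ranged from 1 to 9, 8 to 22, 2 to 6 and 5 to 19, and in testis from 6 to 11, 1 to 4, 2 to 6 and 1 to 4. Differences of slc25a3 that were not called changed sign: slc25a3.L in muscle ranged from -0.21 without Ueno muscle to 2.12 without Taira muscle (then called, adjusted p = 0.0173), and in testis slc25a3.L from -1.37 to 0.25 and slc25a3.S from -0.82 to 0.46, the higher value without Taira testis. Under quantile normalization slc25a3.L was called lower in testis (-1.29, adjusted p = 0.0306).

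Named calls lost by scaling were, under median-of-ratios scaling, those of atp5h.S, atp5j.L, cs.L, dlat.L, fis1.1, idh3b.S, mtx2.S, rhot2.L and smdt1.S in testis, and under quantile normalization those of atp5h.S, atp5j.L, dlat.L, fis1.1, hk1.S, idh3a.L, idh3b.S and rhot2.L in testis and fis1.1 and hk2.L in muscle. With a pseudocount of 0.1 and also of 5, the calls of mcu.L and mcu.S in heart and hk2.S in testis were lost. A pseudocount of 5 also removed those of mcu.S in muscle and of bok.S, hk1.S, mcu.S, micu2.S and mtx2.S in testis. Without the TPM minimum, mcu.L in heart and atp5j.L and micu2.S in testis were not called.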

Other observations

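The hexokinase gene hk1 was present with both copies in heart and almost only with its L copy in muscle. The S copy stood at 97.1 and 88.0 TPM in the Taira and Ueno heart, but at 1.24 and 1.48 TPM in muscle. The L copy stood at 92.5 and 33.8 TPM in heart and at 83.7 and 56.1 TPM in muscle, where the tissues overlap. The log2 ratio of L to S, heart minus muscle, was -5.59 (SE 0.39, limma adjusted p = 9.87e-09), in a contrast chosen after values were seen. Of the 47 pairs in the mitochondrial lists 5 (10.6%) were called in this contrast, against 13.9% of all pairs. The others were slc25a20.2, of the acylcarnitine carrier (-2.71, adjusted p = 0.00644), slc25a30 (-1.30), slc25a36 (1.17) and micu2 (1.04). For slc25a20.2 the L copy stood at 54.7 and 282 TPM in muscle and at 21.3 and 48.5 TPM in heart, while the S copy did not exceed 2.57 TPM in either tissue. Its ratio therefore largely follows the level of the L copy, and its call shows little of a change between copies.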
